A study of Mus musculus with 6 samples.

Results

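The genes described here encode the integrins, the laminins and the other components of the basement membrane, measured by Affymetrix array in sorted cells of MMTV-Wnt-1 mouse mammary tumours. The set was given as 36 gene symbols, and all 36 were among the 15027 genes tested. Each gene is represented by its brightest probe set, averaged over the 6 arrays, out of 81 that the platform annotation assigns to these genes alone. In MMTV-Wnt-1 mice the mouse mammary tumour virus promoter drives a Wnt1 transgene in mammary epithelium, so all 6 arrays come from transgenic tumours, and no array of normal gland is used here. Tumours of 3 mice were sorted by fluorescence into a population labelled tumorigenic, gated as CD24+Thy+CD45-, and a population labelled nontumorigenic, which is given as not CD24+Thy+CD45-. Each population of each mouse was hybridised to 1 array, 3 per label. The label does not settle whether the negation covers CD45 as well. No age, strain background or treatment of the mice was found in the labels.

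A basement membrane is a thin sheet of matrix that underlies epithelium and surrounds vessels, muscle, fat and nerve. Laminin trimers and a type IV collagen network form it, nidogens and the heparan sulfate proteoglycan perlecan link them, and cells hold on to it through integrins, dystroglycan and syndecans. In the mammary gland, basal cells rest on this sheet, and the integrin α6β4 anchors them in hemidesmosomes together with collagen XVII and the laminin made of the α3, β3 and γ2 chains. Levels are log2 expression values after robust multi-array averaging (RMA), in which 1 unit is a doubling. Values of different probe sets are not set against each other, since brightness depends on the probes.

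The arrays labelled tumorigenic did not fully match their gate. Ptprc, which encodes CD45, read 10.21, 7.76 and 3.82 in mice 1, 2 and 3, against 2.33, 3.59 and 2.51 under the nontumorigenic label. Cd24a read 11.85 to 12.84 against 12.84 to 12.99, and Thy1 9.33 to 10.83 against 9.67 to 10.25. The arrays are therefore called by their labels, and directions are between labels. Array medians lay between 4.36 and 4.4. The 5′ Gapdh control read 5.54 on the labelled tumorigenic array of mouse 2 and 7.78 to 9.54 on the other 5 arrays. The 5′ actin control was lowest on that array, at 8.004, and highest on the labelled tumorigenic array of mouse 3, at 9.79. The 3′ control for 18S ribosomal RNA read 6.32 to 7.76 under the tumorigenic label and 8.52 to 8.97 under the other, and its 5′ control 5.17 to 7.11 and 7.84 to 8.27. The part of these controls in the results was not tested. The labels differed in marker lists for other cells as well. The 14 macrophage and myeloid markers averaged 5.64 to 10.39 under the tumorigenic label and 4.27 to 4.32 under the other, and the 12 endothelial markers averaged 7.31 to 8.02 and 5.73 to 6.33. The 11 luminal markers averaged 6.08 to 8.08 and 9.12 to 9.40. In tissue sorted in bulk, fewer cells of a type and less RNA per cell cannot be told apart.

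Between the labels, no integrin, laminin or basement membrane gene passed the adjusted threshold of 0.05. Of the 36 members 0 passed (limma, Benjamini-Hochberg adjustment over all genes), and of all genes tested 0 passed as well, which is 0%, the smallest adjusted p being 0.0658. An unadjusted p below 0.05 was found for 5 members, all with higher means under the tumorigenic label: Itga5, Lamb1, Lama4, Itgb3 and Itga9. Over all genes 1277, or 8.5%, reached that level, 5.23% as higher and 3.27% as lower. Under limma with the mouse as a block the members' count was 3, and that of all genes 1435. Leaving out the labelled tumorigenic array of mouse 1, 2 or 3 gave 5, 2 and 10 members. Over all genes it gave 912, 864 and 2308. Leaving out the labelled nontumorigenic array of mouse 1, 2 or 3 gave 2, 3 and 3 members. Over all genes it gave 962, 1231 and 1055. A positive difference was found for 23 members and a negative one for 13, against 50.7% positive among all genes. The members' median log2 difference was 0.07, against 0.01 over all genes tested.

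**Figure D1:**
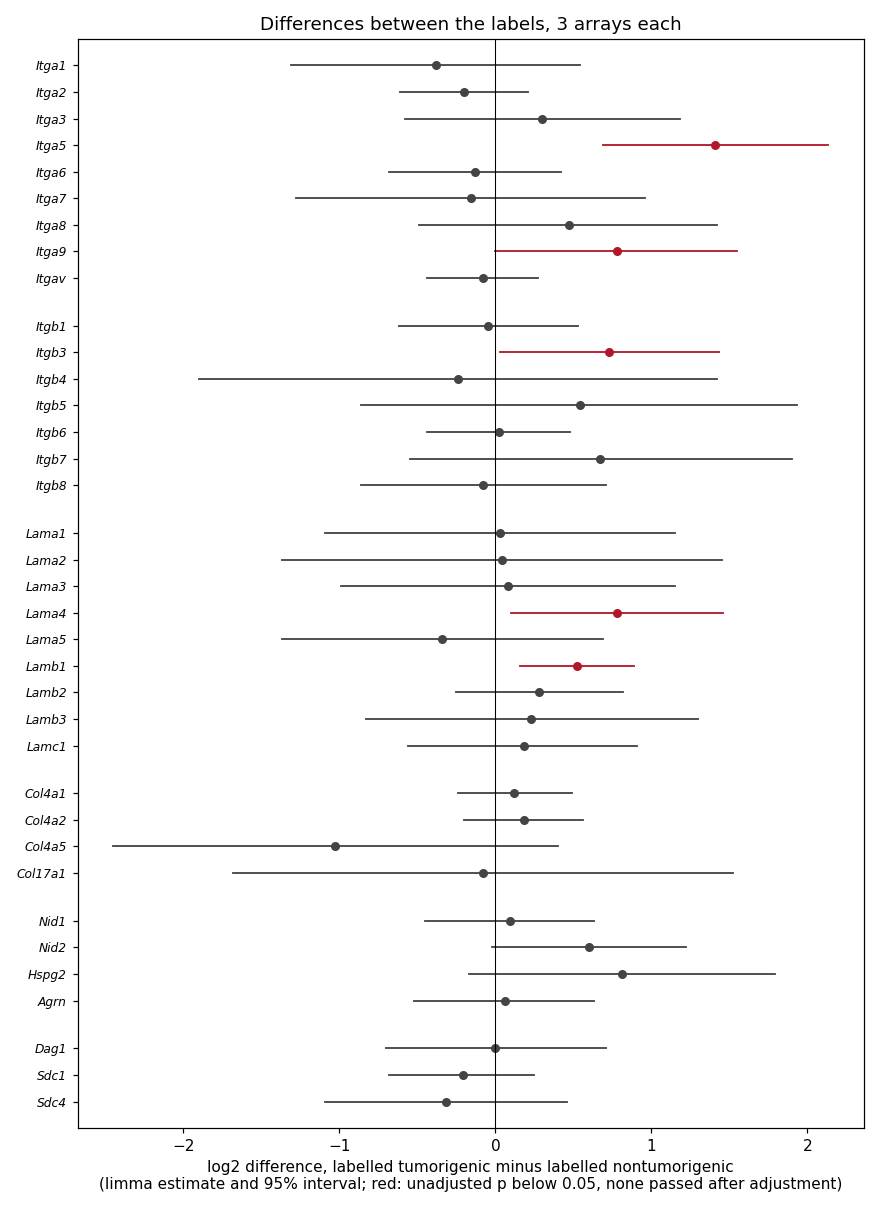
Log2 difference between the labels (horizontal axis) for each of the 36 genes, with limma's estimate as a point and its 95% interval as a line, 3 arrays per label. The intervals of the 5 genes in red exclude 0 before adjustment, from 1.41 for Itga5 to 0.52 for Lamb1, and none of the 36 passed after adjustment.

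The integrin α5 subunit had the largest positive difference in the set. Itga5 encodes the partner of β1 in the main fibronectin receptor. In mice 1, 2 and 3 it read 9.06, 9.72 and 8.71 under the tumorigenic label and 7.53, 7.99 and 7.73 under the nontumorigenic label. Values of other genes are given in the same order of mice. All 3 labelled tumorigenic arrays lay above all 3 of the other label, with a gap of 0.723 between the ranges. The means were 9.16 ± 0.51 and 7.75 ± 0.23 (SD, n = 3 each). Their log2 difference was 1.41, or 2.66-fold (SE 0.3; 95% interval 0.69 to 2.13; limma adjusted p = 0.328). Each mouse had a positive difference, namely 1.53, 1.73 and 0.98. The other probe sets of Itga5 gave 1.12, 0.47 and -0.09, so its size depends on the probe set, and the last had a mean of 3.68, where the cut for dim probe sets was 2.98.

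Lamb1 encodes the laminin β1 chain, which is part of the laminins of vessels and of most developing epithelia. It read 11.32, 11.17 and 11.39 under the tumorigenic label and 10.83, 10.77 and 10.7 under the other. The ranges did not overlap, the gap being 0.334, and the spread within each label was small: 11.29 ± 0.11 and 10.77 ± 0.06 (SD, n = 3 each). The log2 difference was 0.52, or 1.44-fold (SE 0.15; 95% interval 0.16 to 0.89; limma adjusted p = 0.463). A second probe set read 10.66, 10.4 and 10.8 against 10.21, 10.16 and 10.13, again without overlap. The remaining ones gave 0.03 and 0.24.

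The windows upstream of a pair of these genes and of a pair that differed between mice (Col17a1 and Col4a5, described further on) are shown as the proximal promoters of the genes on which the results turn. Each is the 250 bases before the transcript start in RefSeq, mouse build GRCm38.p6, on the gene's own strand. The array values name no genome build, and the table held a window for 27 of the 36 genes. Capitals mark 4 simple motifs, each searched on both strands: the GC box GGGCGG, the TATA box TATAAA, the CCAAT box CCAAT and the AP-1 site TGACTCA. No match of a motif overlaps another here.
Itga5, chr15:103366792-103367041, minus strand: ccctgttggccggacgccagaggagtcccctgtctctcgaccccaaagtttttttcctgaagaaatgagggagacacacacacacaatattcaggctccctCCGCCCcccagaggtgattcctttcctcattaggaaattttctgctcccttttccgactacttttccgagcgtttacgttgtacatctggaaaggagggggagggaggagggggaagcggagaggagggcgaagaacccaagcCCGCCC
Lamb1, chr12:31265043-31265292, plus strand: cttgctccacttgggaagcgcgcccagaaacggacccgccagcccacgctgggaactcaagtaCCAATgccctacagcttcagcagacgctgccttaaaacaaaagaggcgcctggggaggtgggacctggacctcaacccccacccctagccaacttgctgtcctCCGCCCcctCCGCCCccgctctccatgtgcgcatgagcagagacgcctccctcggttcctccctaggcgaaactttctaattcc
Col17a1, chr19:47692043-47692292, minus strand: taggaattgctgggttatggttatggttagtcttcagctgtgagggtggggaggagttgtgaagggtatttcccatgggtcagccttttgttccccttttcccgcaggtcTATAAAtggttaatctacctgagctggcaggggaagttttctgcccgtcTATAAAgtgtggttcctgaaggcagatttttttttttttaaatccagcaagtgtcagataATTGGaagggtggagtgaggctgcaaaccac
Col4a5, chrX:141475169-141475418, plus strand: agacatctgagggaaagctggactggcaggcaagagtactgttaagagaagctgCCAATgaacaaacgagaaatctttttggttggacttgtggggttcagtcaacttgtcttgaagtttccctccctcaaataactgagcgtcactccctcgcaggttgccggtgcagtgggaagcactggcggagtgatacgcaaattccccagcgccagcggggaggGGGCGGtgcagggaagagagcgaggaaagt
The Itga5 and Lamb1 windows each held 2 GC boxes, and Col4a5 held 1, where 32.7% of all windows of this length hold at least 1. The Col17a1 window held none of these and had 2 TATA boxes, a motif found in 12.4% of windows. CCAAT occurred once each in Lamb1, Col17a1 and Col4a5 and in 33.8% of windows. The AP-1 letters, in 4.46% of windows, were in none of the 4. The share of G and C was 55.6%, 62% and 54% for Itga5, Lamb1 and Col4a5, and 46% for Col17a1, against a median of 52.4% over all windows. These matches describe the letters only.

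The other laminin chains held both directions of difference among the mice. Of the 9 chains 8 had a positive difference, with a median of 0.18, and only Lama5 had a negative one. Lama4, the α4 chain of vessel and muscle laminins, read 10.16, 9.86 and 9.24 under the tumorigenic label and 8.88, 8.81 and 9.24 under the other. The ranges were apart by no more than 0.0021, since mouse 3 had the same level under both labels to 2 decimals. The log2 difference was 0.78 (SE 0.28; limma adjusted p = 0.536). The second probe set of Lama4 gave 0.01, so the difference rests on 1 probe set.

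Lama1, Lama3, Lama5 and Lamb3 encode chains of epithelial laminins, and each had its highest value on the labelled tumorigenic array of mouse 3. This was not particular to them, since Lamb1 and Lamc1 were highest there too, which makes 6 of the 9 chains. Lamb3 read 7.49, 7.7 and 9.1 under the tumorigenic label, and 8.03, 7.86 and 7.7 under the other. Lama3, its partner in the hemidesmosomal laminin, read 8.43, 9.13 and 10.11 against 9.32, 9.29 and 8.82. Mouse 3 thus lay above every labelled nontumorigenic array for both genes, and mouse 1 below. A dimmer second probe set of Lama3, with a mean of 3.52, did not show this order. It read 3.3, 3.3 and 3.2 against 3.3, 4.22 and 3.78. The differences of the means were only 0.23 for Lamb3 (95% interval -0.83 to 1.3) and 0.08 for Lama3 (-0.99 to 1.15). Lama1, a chain of embryonic and glandular basement membranes, read 7.99, 8.79 and 9.77 against 8.55, 9.14 and 8.76. Lama5, the α chain of most adult epithelial and vessel laminins, read 7.13, 8.35 and 8.78 against 8.51, 8.4 and 8.35. Lama1, Lama3, Lama5 and Lamb3 were each lowest on the labelled tumorigenic array of mouse 1.

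Lama2, the α2 chain of the laminin around muscle, Schwann and stromal cells, had the opposite order. It read 10.6, 10.66 and 8.56 under the tumorigenic label and 9.97, 10.01 and 9.72 under the other. Mice 1 and 2 lay above and mouse 3 below all 3 labelled nontumorigenic arrays, so that the mean difference was 0.04 (SE 0.58). Lamb2, the β2 chain, and Lamc1, the γ1 chain shared by most laminins, had differences of 0.28 and 0.18. The second probe set of Lamc1 gave 0.83 without overlap of the labels, reading 8.41, 7.95 and 8.53 against 7.33, 7.86 and 7.23.

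Type IV collagen of the general network and its epithelial relatives differed in how they varied. Col4a1 and Col4a2 encode the α1 and α2 chains of the trimer found in all basement membranes. Their 300-base promoter windows in RefSeq lie on opposite strands and overlap by 78 bases, so the genes are neighbours that start head to head. Col4a1 read 12.77, 12.51 and 12.67 against 12.55, 12.53 and 12.5, and Col4a2 12.39, 12.23 and 12.28 against 12.05, 12.28 and 12.02. The differences were 0.12 (95% interval -0.24 to 0.49) and 0.18 (-0.2 to 0.56). The second Col4a1 probe set read 11.82, 11.55 and 11.62 against 11.41, 11.5 and 11.08, a difference of 0.33 without overlap. The highest value of any probe set was 13.87.

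Col4a5 had the largest negative difference of the 36 genes. It encodes the α5 chain of a type IV collagen trimer of epithelial basement membranes. It read 5.97, 6 and 8.05 under the tumorigenic label against 7.97, 7.72 and 7.41. Mice 1 and 2 lay below all labelled nontumorigenic arrays and mouse 3 above them. The log2 difference was -1.03 (SE 0.59; 95% interval -2.45 to 0.4; limma adjusted p = 0.679). Leaving out the array of mouse 3 under that label gave -1.71. The second probe set read 5.38, 5.55 and 6.42 against 6.04, 6.97 and 6, a difference of -0.55.

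Col17a1, the transmembrane collagen of hemidesmosomes, had the same order with a wider gap. It read 6.72, 6.8 and 9.14 against 7.63, 7.79 and 7.48. The array of mouse 3 was 2.38 log2 units above the mean of mice 1 and 2 under the same label, while the labelled nontumorigenic arrays varied with an SD of 0.15. The mean difference between the labels was -0.08 (SE 0.66), because the arrays of the 3 mice lay on both sides. Col17a1 is measured by 1 probe set only.

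**Figure D2:**
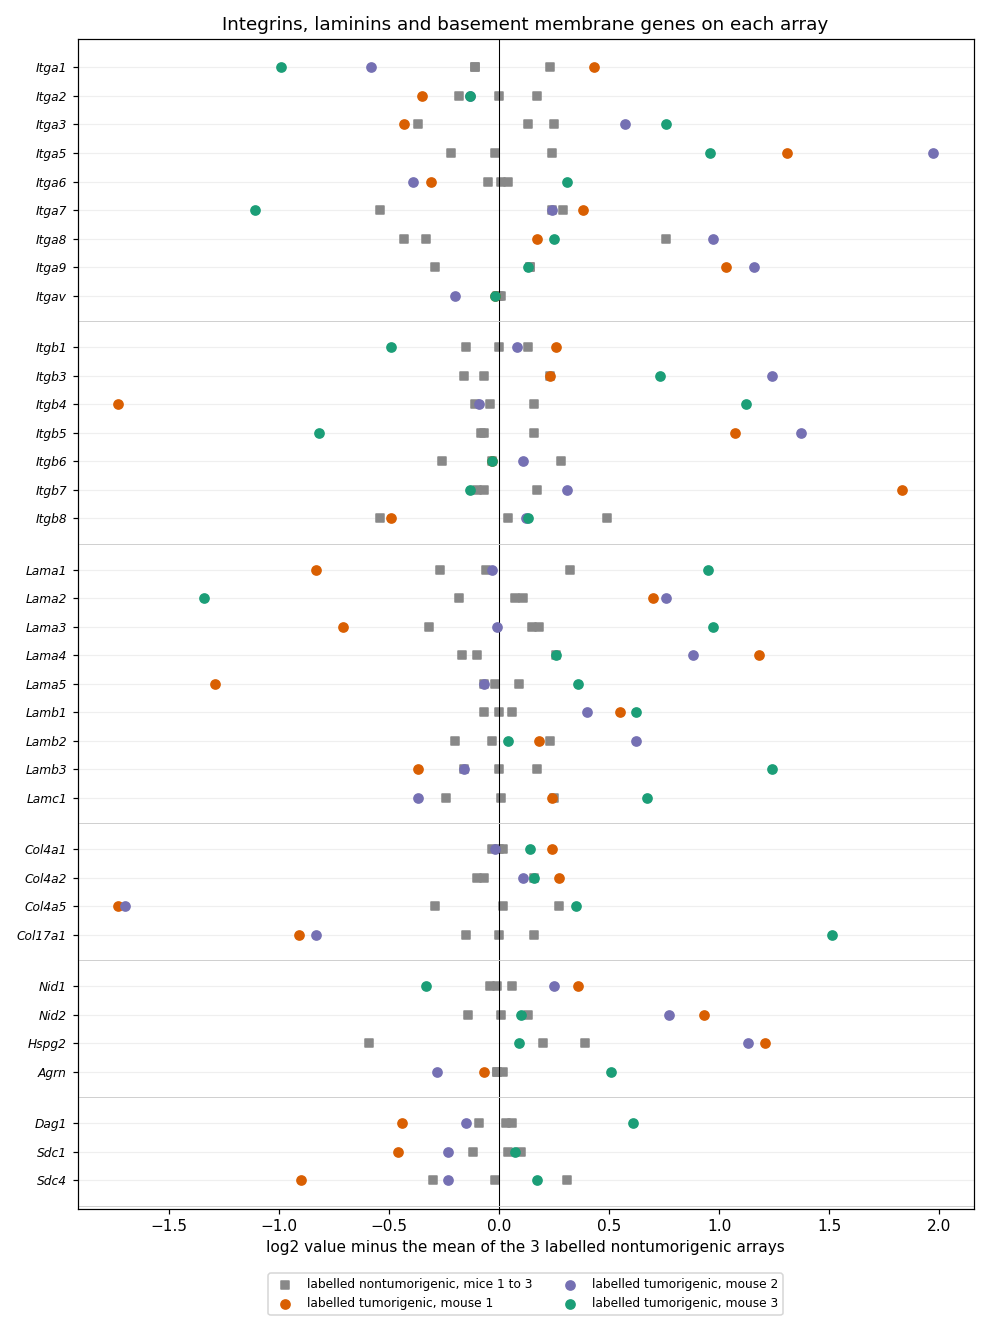
Log2 value of each gene on each array minus the mean of the 3 labelled nontumorigenic arrays (horizontal axis), with squares for labelled nontumorigenic and circles for labelled tumorigenic arrays, coloured by mouse. In 31 of the 36 genes the squares have a smaller SD than the circles, with Itga8 and Itgb8 among the exceptions. Circles of mouse 3 and of mice 1 and 2 often lie on opposite sides, as for Col17a1, Itgb5 and Lama2.

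The nidogens and matrix proteoglycans had 4 positive differences of 4. Hspg2, which encodes perlecan, read 10.61, 10.53 and 9.49 under the tumorigenic label and 9.79, 8.81 and 9.6 under the other. Mice 1 and 2 were above every labelled nontumorigenic array and mouse 3 was within their range. The log2 difference was 0.81 (SE 0.4; limma adjusted p = 0.642). On the second Hspg2 probe set all 3 were above, at 6.7, 6.51 and 6.5 against 6.17, 5.17 and 5.59, a difference of 0.92.

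Nid2, nidogen 2, read 7.85, 7.69 and 7.02 against 7.05, 6.78 and 6.93, a difference of 0.6 (SE 0.26; limma adjusted p = 0.598). Nid1, the more widespread nidogen, had 0.09, with mice 1 and 2 above and mouse 3, at 10.98, below the labelled nontumorigenic range of 11.27 to 11.37. Its other probe sets gave 0.26 and 0.76, the last reading 7.22, 7.4 and 6.59 against 6.59, 6.02 and 6.35. Agrn, which encodes agrin, a heparan sulfate proteoglycan that binds laminin and dystroglycan, was turned the other way. It read 11.44, 11.23 and 12.02 against 11.5, 11.53 and 11.5. Its spread under the nontumorigenic label was an SD of 0.02.

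Among the 9 integrin α subunits, 4 differences were positive and 5 negative, with a median of -0.08. Itga9, the α9 subunit that binds tenascin C and VCAM-1, read 7.74, 7.87 and 6.84 against 6.85, 6.42 and 6.85, a difference of 0.78 (SE 0.32; limma adjusted p = 0.586). Mouse 3 was level with the other label. Another probe set read 4.9, 5.43 and 4.23 against 3.97, 3.73 and 3.47, without overlap, and the remaining one gave -0.02.

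The laminin-binding α subunits did not go together. Itga6, the α6 subunit and a common marker of basal and progenitor cells, read 11.89, 11.81 and 12.51 against 12.15, 12.24 and 12.21. Mice 1 and 2 lay below and mouse 3 above the other label, and the difference was -0.13 (95% interval -0.68 to 0.42). Itga3, the α3 subunit that also binds epithelial laminins, read 7.65, 8.65 and 8.84 against 8.21, 8.33 and 7.71, with mouse 1 on one side and mice 2 and 3 on the other. The Itga3 difference was 0.3. Its second probe set gave 0.6, reading 7.74, 8.69 and 8.65 against 7.87, 8.03 and 7.39, with mouse 1 within the other label. Itga7, the α7 subunit of muscle, read 6.43, 6.29 and 4.94 against 6.34, 6.29 and 5.51.

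Itga1, a collagen receptor of smooth muscle and other stromal cells, read 11.31, 10.3 and 9.89 against 11.11, 10.77 and 10.77, with a difference of -0.38. Its second probe set gave -0.31 with the same order of the mice. Itga8, which pairs with β1 to bind nephronectin, had 0.47, positive in each mouse (0.5, 0.21 and 0.68). Itgav, the subunit shared by the vitronectin-type receptors, had -0.08. Its ranges did not overlap, but the gap was 0.0171 and its 5 probe sets gave differences from -0.5 to 0.14. Itga2, a collagen-binding subunit, read between 3.17 and 3.69 on all arrays, close to the dim cut of 2.98.

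Among the 7 β subunits, 4 differences were positive and 3 negative, with a median of 0.02. Itgb3, the β3 subunit, pairs with αv and is used as a surface marker of luminal progenitors. It read 7.68, 8.69 and 8.18 against 7.38, 7.68 and 7.29, so that mouse 1 reached only the highest labelled nontumorigenic value. The difference was 0.73 (SE 0.29; 95% interval 0.03 to 1.43; limma adjusted p = 0.571), positive in each mouse at 0.3, 1.01 and 0.89. Its second probe set was below the dim cut. Itgb1, the subunit shared by most matrix receptors, had -0.05 (95% interval -0.62 to 0.53), and the other 4 of its 5 probe sets above the dim cut gave small positive values up to 0.42.

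Itgb4 and Itgb5 had the widest spread of the β subunits. Itgb4, the β4 subunit found in hemidesmosomes, read 4.88, 6.52 and 7.73 under the tumorigenic label and 6.57, 6.5 and 6.77 under the other. Mouse 1 was below, mouse 2 within and mouse 3 above that range, and the difference was -0.24 (SE 0.68). Itgb5, the β5 subunit of a vitronectin receptor, read 10.06, 10.36 and 8.17 against 8.91, 8.92 and 9.15. Mice 1 and 2 lay above and mouse 3 below, and on each of its 4 probe sets the array of mouse 3 was the lowest of the 6. The difference was 0.54 (SE 0.57; limma adjusted p = 0.819), and 1.21 when the array of mouse 3 under that label was left out.

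Itgb7, a lymphocyte subunit, read 6.14, 4.62 and 4.18 against 4.24, 4.21 and 4.48. Only mouse 1 and mouse 2 under the tumorigenic label lay above the other label, and mouse 1 was highest, on the array where the 8 T and NK cell markers averaged 7.71, against 4.53 and 3.23 in mice 2 and 3 and 3.73 to 4.22 under the other label. The part of those cells in the Itgb7 value was not tested. Itgb6, an epithelial αv partner, read 3.28 to 3.82 on all arrays and had a difference of 0.02. Itgb8, another αv partner, read 5.9 to 6.93 and had -0.08.

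Dystroglycan and the syndecans, the receptors that are not integrins, had differences within their spread. Dag1, which encodes both dystroglycan subunits, read 9.56, 9.85 and 10.61 against 10.03, 10.06 and 9.91, with a difference of 0.00 and mouse 3 again alone above the other label. Its other 3 probe sets gave -0.14 to -0.26. On the brightest of these, labelled tumorigenic mouse 3 read 8.15, below the 8.28 of labelled nontumorigenic mouse 2. Sdc1, the syndecan of epithelium and plasma cells, read 11.8, 12.03 and 12.33 against 12.14, 12.3 and 12.36 and was negative in each mouse. The Sdc1 difference was -0.21 (95% interval -0.68 to 0.25), and its 4 probe sets ranged from -0.22 to -0.15. Sdc4, a syndecan of focal adhesions, had -0.32 (95% interval -1.09 to 0.46).

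**Figure D3:**
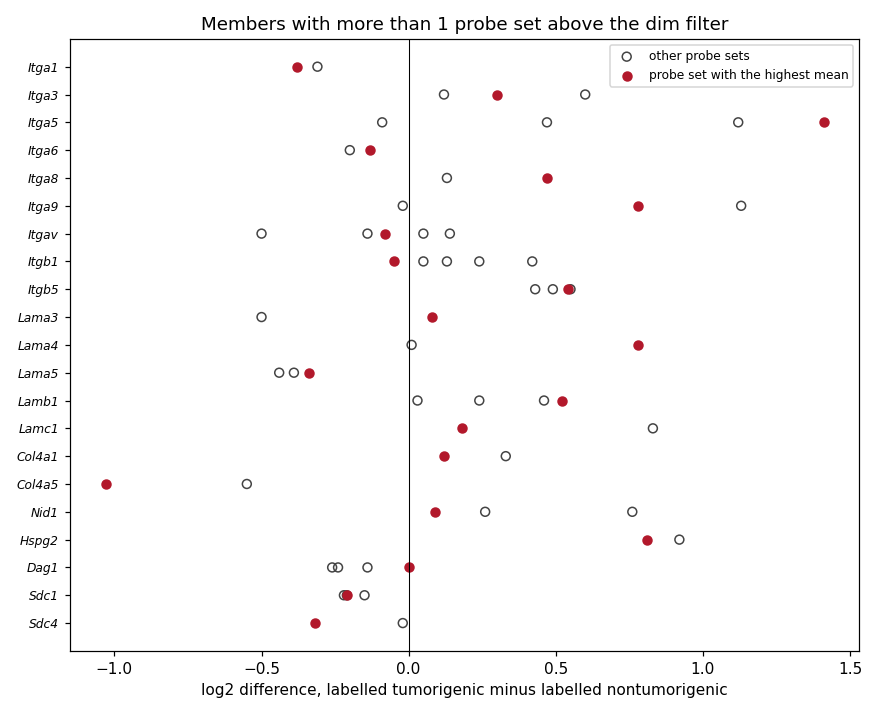
Log2 difference between the labels (horizontal axis) on every probe set above the dim cut, for the 21 genes with more than 1, with the chosen probe set filled. Itgb5 lies between 0.43 and 0.55 on all 4 of its probe sets, while Itga5 spans -0.09 to 1.41 and Lama4 0.01 to 0.78.

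Of those 21 genes with several probe sets above the dim cut, 15 had the same sign on all of them. The 6 that did not were Itga5, Itga9, Itgav, Itgb1, Lama3 and Dag1. Ranges of the labels did not overlap in 4 of the 36 genes, namely Itga5, Lamb1 and Lama4 as higher and Itgav as lower. Over all genes tested, 12.5% did not overlap, 6.9% as higher and 5.59% as lower. Leaving out the labelled tumorigenic array of mouse 1 or 3 gave 7 and 19, and leaving out the labelled nontumorigenic array of mouse 2 gave 7. The share over all genes was not taken with arrays left out, and ranges of fewer arrays overlap less often.

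In most of the set the spread was wider under the tumorigenic label. In 31 of the 36 genes, or 86.1%, the SD over the 3 labelled tumorigenic arrays exceeded that over the other 3, against 54.6% of all genes tested. The median SD was 0.52 under the tumorigenic label and 0.17 under the other, where all genes had 0.3 and 0.27. These counts describe the set and carry no test.

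Mouse 3 often stood apart from the other mice. In 11 genes, or 30.6%, the labelled tumorigenic arrays of mice 1 and 2 were on one side of every labelled nontumorigenic array and that of mouse 3 was on the other. Among all genes this order was found in 6.63%. It was found with mouse 1 as the odd array in 2 genes, Itga1 and Itga3, against 2.11% of all genes. With mouse 2 as the odd array it was found in 0 genes, against 2.16%. Of the 11 genes, 7 were highest in mouse 3: Itga6, Lama5, Lamb3, Col4a5, Col17a1, Agrn and Dag1. The other 4, Itgb5, Itgb7, Lama2 and Nid1, were lowest there. The array of mouse 3 held the highest of the 6 values in 13 of the 36 genes, or 36.1%, against 16.4% of all genes. It held the lowest in 7, or 19.4%, against 12.9%. The labelled tumorigenic array of mouse 1 was often at an end as well. It held the highest value in 10 genes, or 27.8%, against 16.5%, and the lowest in 12, or 33.3%, against 24.5%. These orders were noticed in the same values and were not tested. They rest on 1 probe set per gene. Of the 11 genes, Col4a5, Dag1, Lama5 and Nid1 had another probe set above the dim cut that did not set mouse 3 opposite mice 1 and 2. The other such probe sets of Itga6 and Itgb5 did. With mouse 1 as the odd array, the second probe set of Itga1 kept the order and the other probe sets of Itga3 did not.

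**Figure D4:**
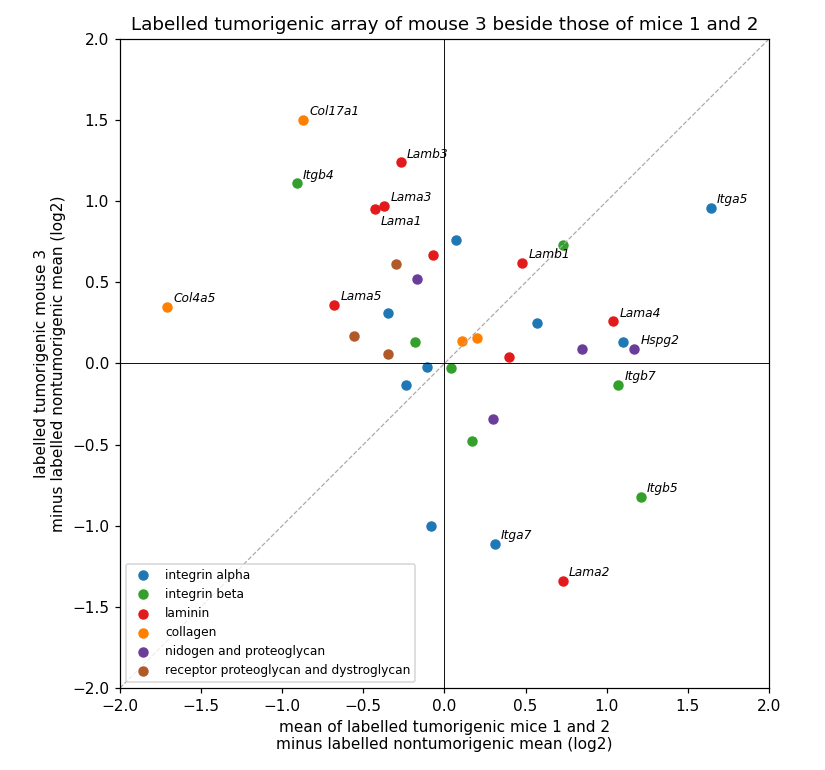
Each gene's value in labelled tumorigenic mouse 3 (vertical axis) against the mean of labelled tumorigenic mice 1 and 2 (horizontal axis), both minus the same labelled nontumorigenic mean, in log2 units. Points in the upper left, such as Col17a1 and Itgb4, were high in mouse 3 only, points in the lower right, such as Itgb5 and Lama2, were low there, and Itga5 and Lamb1 lie in the upper right.

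Cell type markers differed between the same arrays. The 11 basal and myoepithelial markers averaged 9.31, 9.47 and 10.49 under the tumorigenic label and 9.11 to 9.59 under the other label. Of the 11, 9 had the highest of their 6 values on the labelled tumorigenic array of mouse 3, against 16.4% of all genes. The keratins Krt5 and Krt14 read 10.65 and 10.94 in mouse 3, against 8.78 and 8.79 in mouse 1 and 9.32 and 9.35 in mouse 2. Krt17, the other keratin of the list, read 8.57 in mouse 3, against 7.83 in mouse 1 and 8.56 in mouse 2. The 9 fibroblast markers averaged 10.6 and 10.68 in mice 1 and 2, 8.52 in mouse 3 and 9.09 to 9.95 under the other label. The 7 pericyte markers averaged 10.17, 9.71 and 8.88 against 9.09 to 9.75. No measured marker of these lists was below the dim cut on all 6 arrays. On the labelled tumorigenic array of mouse 3, 0 of the fibroblast or pericyte markers had its highest value. The part of these cells in the values of the basement membrane genes was not tested.

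**Figure D5:**
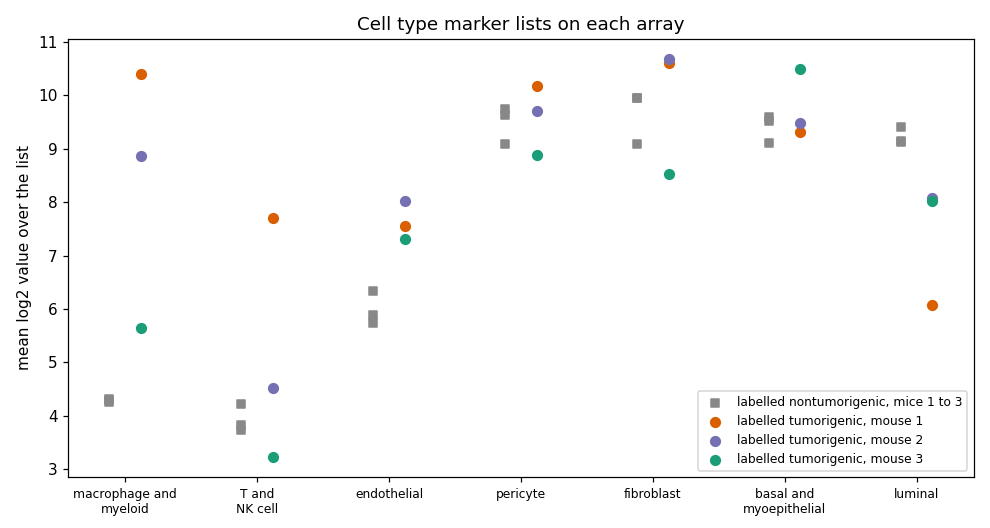
Mean log2 value of each cell type marker list (vertical axis) on each array, with squares for labelled nontumorigenic and circles for labelled tumorigenic arrays. Mouse 3 is highest in the basal list, at 10.49, and lowest in the fibroblast list, at 8.52, and all 3 circles lie above the squares in the endothelial list.

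Endothelial markers averaged higher on all 3 labelled tumorigenic arrays, where Itga5 and Lamb1 were high as well. Lama4 was high in mice 1 and 2 only, and read 9.24 under both labels in mouse 3. Of the 12 markers 12 had positive differences, with a median of 1.66, and 11 did not overlap between the labels, against 6.9% of all genes. Their mean under the tumorigenic label was 7.56, 8.02 and 7.31, so mouse 2 was highest and mouse 3 lowest, which is also the order of Itga5. Lamb1 and Lama4 did not share that order, Lamb1 being lowest in mouse 2 and Lama4 highest in mouse 1. The part of endothelial cells in Itga5, Lamb1 and Lama4 was not tested.

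Among the other genes of adhesion and matrix, 84 were listed in 6 groups and 68 were measured, of which 48 had positive and 20 negative differences. None of the 68 passed the adjusted threshold (limma; 0% of all genes passed). An unadjusted p below 0.05 was found for 4, all higher, against 8.5% of all genes. With the mouse as a block it was found for 12, against 1435 of the 15027 genes. Of the 19 measured integrin adaptors and focal adhesion genes, 16 had positive differences, with a median of 0.32. Bcar1, the p130Cas scaffold, read 8, 8.31 and 8.12 against 7.17, 7.33 and 7.03, without overlap, a difference of 0.96 (limma adjusted p = 0.247). Talin 1, Tln1, which links integrin tails to actin, read 9.74, 9.47 and 9.86 against 9.25, 9.06 and 9.14, also without overlap, at 0.54 (limma adjusted p = 0.507). Parvb, the adaptor β-parvin, read 5.67, 5.09 and 3.9 against 4.07, 3.92 and 3.28.

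Of 16 further measured matrix ligands, 13 had positive differences, with a median of 0.39. Nephronectin, Npnt, the ligand of the α8 integrin, read 7.5, 6.72 and 7.19 against 6.05, 5.58 and 6.57, a difference of 1.08. Tenascin C, Tnc, a ligand of the α9 integrin, read 9.7, 9.85 and 9.52 against 8.92, 8.69 and 9.39, a difference of 0.69. Neither overlapped between the labels, and limma's adjusted p was 0.486 for Npnt and 0.522 for Tnc. Col7a1, the anchoring fibril collagen, had 0.61.

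Of the 8 measured hemidesmosome and tetraspanin partners, 5 had positive differences. The tetraspanin Cd9 had -0.87, Cd81 -0.24 and dystonin, Dst, 0.27. Plectin, Plec, which ties the β4 tail to keratin filaments, read 10.45, 10.49 and 11.17 against 10.44, 10.63 and 10.53, with mouse 3 above every other array. It was chosen after its values were seen. Of the 12 measured genes of the dystroglycan complex and its glycosylation, 4 were positive, with a median of -0.08. The 3 with the smallest p had -0.41 for Sntb1, 0.44 for Sgcd and -0.29 for Dmd. Of 7 other syndecans and glypicans, 5 were positive, and Gpc6 had 0.85, Gpc2 0.69 and Gpc4 -0.17.

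Of the 6 measured leukocyte and platelet integrins, Itgb2, Itgax, Itgal and Itga4 had their highest value on the array with the highest Ptprc. Itgb2, the common β2 subunit, read 7.1, 5.78 and 3.28 under the tumorigenic label and 3 to 3.32 under the other label. Itgax, the CD11c subunit, read 8.95, 6.68 and 3.69 against 3.55 to 3.69. Both were high in mice 1 and 2 and level with the other label in mouse 3. Itgal, the αL subunit, read 4.97, 3.18 and 2.95 against 2.76 to 3.03. Itga4, Itgae and Itga2b were named after their values were seen. Itga4, the α4 subunit, read 6.63, 4.36 and 3.13 against 5.71, 3.6 and 2.85, with a high value also on the array where Ptprc was lowest. Itgae and Itga2b were highest on labelled nontumorigenic arrays, at 4.7 and 5.15, with differences of 0.04 and -0.04.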

How the data were processed

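The deposited table holds log2 expression values of 45101 probe sets on 6 arrays, made by RMA per the submitters' processing notes, which give no version. RMA subtracts background, quantile-normalises the arrays and summarises the probes of each set. Per the labels' protocols, total RNA was amplified before it was labelled with biotin. Probe sets with several genes or none (932 and 9160) and the 64 control sets were left out, gene names come from GEO's platform annotation, and the 25% of probe sets with the lowest means (below 2.98) were left out. The limma 3.58.1 package in R 4.3.3 was fitted to the 6 arrays over 15027 genes, without a mouse term, with Benjamini-Hochberg adjustment at 0.05. SE and 95% intervals are limma's. The procedure was tested on simulated data.

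The mouse numbers pair the arrays, since both populations came from the same animals. Deviations from the label means correlated at r = 0.0792, 0.136 and 0.0864 within mice 1, 2 and 3 and at -0.0833 to -0.0104 between mice, across genes. Because label means were taken out, positive values within mice force negative ones between mice on average. The contrast is therefore no separate check of the pairing. The fit with the mouse as a block is an alternative, beside other filters, scalings, probe set rules, priors, array weights and arrays left out. With 3 arrays against 3, a permutation test of one gene cannot go below 0.1. All 36 genes are accounted for. Of each other list, up to 3 genes with the smallest p were named, with keratins set beside a member and the sort markers. The members, lists and tests were chosen with earlier results of these data known. The number of arrays limits the precision: the median 95% interval of a member reached 0.76 log2 units to either side.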

Additional observations from a re-analysis of the deposited data

How the results depend on the processing

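Of 19 alternatives, 18 allowed a test, and no member passed the adjusted threshold in any of these. The smallest adjusted p of a member was 0.0745 (limma), for Col4a5 without the labelled tumorigenic array of mouse 3. With the mouse as a block, 3 members instead of 5 had an unadjusted p below 0.05, and no adjusted call changed. The block gave 1435 instead of 1277 of all genes at that level, and 12 instead of 4 of the other adhesion and matrix genes. The probe set with the highest variance also gave 3 members, and 1280 of all genes. Over all genes, 1 gene passed (Ramp2) without the dim filter and 1 (Ramp2) when probe sets of a gene were averaged. Leaving out arrays or mice gave 0 to 18 genes passed, the 18 without the labelled tumorigenic array of mouse 3, and 726 to 2308 genes with an unadjusted p below 0.05. For members the same settings gave 2 to 10 with an unadjusted p below 0.05, 5 to 23 without overlap and a median difference of -0.045 to 0.185. Members without overlap numbered 2 after renewed quantile normalisation and 25 with the labelled tumorigenic array of mouse 3 alone. With 1 array against 3, no overlap means only that this array lay above or below all 3 others. The share of all genes without overlap was taken for the main setting only. It was not taken after renewed quantile normalisation, for this 1 array, or with arrays or mice left out.

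Over the 18 settings with a test, 19 of the 36 members kept their sign. With the labelled tumorigenic array of mouse 3 alone, 5 of those 19 turned: Itgb5 to -0.82, Itgb7 to -0.13, Col4a5 to 0.35, Sdc4 to 0.17 and Sdc1 to 0.06, leaving 14. Dag1, at 0.00, ranged from -0.34 to 0.24. Of the others, Itgb1 turned to 0.16 with the mean of its probe sets and 0.42 with the highest-variance one, Lama3 to -0.21 with the mean, Lama1 to -0.01 after quantile normalisation, and Lama1 and Agrn to -0.03 each with array weights. Leaving out arrays or mice gave Itga3 -0.12 to 0.73, Itga6 -0.35 to 0.02, Itga7 -0.43 to 0.31, Itgb1 -0.27 to 0.24, Itgb4 -0.91 to 0.51, Itgb6 -0.16 to 0.18 and Itgb8 -0.35 to 0.17. It gave Lama1 -0.45 to 0.47, Lama2 -0.32 to 0.73, Lama3 -0.53 to 0.57, Lama5 -0.72 to 0.19, Lamb3 -0.35 to 0.62 and Lamc1 -0.19 to 0.57. It gave Col17a1 -0.95 to 0.37, Nid1 -0.05 to 0.33 and Agrn -0.18 to 0.24. The cause of these changes was not tested.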
